A study of Mus musculus with 3 samples.

Results

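The levels of 7 acute-phase genes were followed in 3 libraries of adult mouse sciatic nerve made by Drop-seq, which captures single cells in droplets and counts their transcripts by unique molecular identifiers (UMIs). The members are Saa1, Saa3, Kng1, Fetub, A2m, Lcn2 and Hp, 7 of the 21438 genes listed in the deposited tables. They were chosen from earlier results of these data, by their summed counts in injured and uninjured mesenchymal cells and by their level in classes of the injured nerve. Their levels in those cells are therefore a description with no test.

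The injured beads library holds cells of the distal nerve segment of wild-type CD1 mice, 9 days after the nerve was resected, cleaned with myelin removal beads. The injured FACS library holds cells of the same segment and day from CD1 and C57BL/6 mice, sorted by flow cytometry, where the sources used here do not state the gate. The uninjured library holds bead-cleaned cells of intact nerve from wild-type CD1 mice, of which the authors deposited those they called mesenchymal. Each group is 1 library of an unstated number of mice, so injury and library cannot be told apart, and the FACS library also differs in strain and isolation. The 1289 injured mesenchymal cells that the authors deposited are a subset of the 4300 barcodes of the injured beads library, and the FACS mesenchymal-like cells were found here by clustering.

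The acute phase is the systemic reaction to tissue injury and infection, in which the liver changes the mix of plasma proteins it secretes. It is driven mainly by cytokines of the interleukin-6 family and interleukin-1, through the transcription factors STAT3, C/EBP beta and NF-kB. Several of its proteins are also made outside the liver: serum amyloid A3 by macrophages and fat cells, lipocalin 2 by neutrophils, and haptoglobin by fat cells and neutrophil precursors. Endoneurial mesenchymal cells are the fibroblast-like cells that lie among the axons and Schwann cells inside the nerve fascicles.

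Promoter sequences of 3 members whose levels were high in the same cells are shown first, with the motifs searched for in them. Of the 7 members, Saa1, Saa3, Fetub and Lcn2 matched an entry of the promoter table, and Kng1, Hp and A2m did not. They are RefSeq sequences on GRCm38.p6, running from 250 bases before to 50 bases after the annotated start, in the direction of transcription. Capitals mark matches, on either strand, to a C/EBP motif (TTGCNNAA) in Saa3 and Saa1 and, in Fetub, to an NF-kB motif (GGG, any 2 bases, TT, any base, CC) and then a TATA box (TATAAA). Saa3 lies at chr7:46715627-46715926 (minus strand), Saa1 at chr7:46742931-46743230 (minus strand) and Fetub at chr16:22918132-22918431 (plus strand).
Saa3: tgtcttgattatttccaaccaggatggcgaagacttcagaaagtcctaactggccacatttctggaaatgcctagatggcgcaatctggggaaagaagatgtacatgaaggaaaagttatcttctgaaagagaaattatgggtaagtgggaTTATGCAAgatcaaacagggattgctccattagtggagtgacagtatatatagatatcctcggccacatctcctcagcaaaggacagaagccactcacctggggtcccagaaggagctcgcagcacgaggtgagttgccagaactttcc
Saa1: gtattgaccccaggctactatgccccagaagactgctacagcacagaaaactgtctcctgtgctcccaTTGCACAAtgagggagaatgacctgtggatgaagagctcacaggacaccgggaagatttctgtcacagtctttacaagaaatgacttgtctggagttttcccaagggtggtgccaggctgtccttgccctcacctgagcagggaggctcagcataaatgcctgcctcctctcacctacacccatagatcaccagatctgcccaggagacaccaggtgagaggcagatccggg
Fetub: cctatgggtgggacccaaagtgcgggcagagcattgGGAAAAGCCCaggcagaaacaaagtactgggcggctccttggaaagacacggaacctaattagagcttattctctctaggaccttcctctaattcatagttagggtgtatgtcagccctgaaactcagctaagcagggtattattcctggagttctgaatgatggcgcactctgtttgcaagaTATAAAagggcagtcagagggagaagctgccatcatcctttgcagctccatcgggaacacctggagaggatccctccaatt

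The C/EBP match begins 99 bases before the start of Saa3 and 182 bases before that of Saa1. In the Fetub promoter the NF-kB match begins at 214 and the TATA match at 31 bases before the start, and the matches do not overlap. A second annotated Fetub start, on the same strand, has none of these motifs within its window. The C/EBP motif was not particular to the members that were high: Lcn2, which was near 0 in these cells, has a match beginning 216 bases before its start. No window of these 4 genes holds the STAT3 motif TTCNNNGAA. Of 32851 promoters of this length in the table, 10.8% hold the C/EBP motif, 4.79% the NF-kB motif, 13.6% the TATA box and 8.30% the STAT3 motif. A match here is a stretch of letters and not a measured binding site.

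The members could be counted in 251 endoneurial-like cells of the injured beads library, 95 of the injured FACS library and 424 of the uninjured library. These cells were found by clustering without the members or the related gene lists, and named from 8 markers that include Osr2, Sox9, Etv1 and Wif1. All 8 markers had UMIs in the endoneurial-like cells of each library. They summed to 5008 CPM in injured beads cells, 3771 CPM in injured FACS cells and 8570 CPM in uninjured cells, where CPM scales a gene's UMIs to the total of all cells of the pool. Of the 8, Wif1 alone had a higher CPM in both injured pools, with 3751 UMIs in the injured beads cells, 1210 in the injured FACS cells and 11 in the uninjured cells. Markers of other mesenchymal subclasses were found in these cells as well. In the same order of libraries, those of differentiating cells summed to 2499, 2268 and 503 CPM. Those of epineurial cells summed to 1803, 1440 and 1168 CPM, and those of perineurial cells to 267, 220 and 358 CPM. In the joint clustering 249 of the 251 injured beads cells formed a cluster of their own, and 424 uninjured cells shared the other endoneurial-like cluster with 2 injured ones, so cluster and library cannot be told apart. The median depth was 6232 UMIs per injured beads cell, 8646 per injured FACS cell and 2182.5 per uninjured cell.

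In injured endoneurial-like cells of the beads library, 5 of the 7 members stood above the uninjured cells and 1 below by a fixed rule of size. That rule asks for at least 50 CPM in 1 of the pools, a ratio of at least 2-fold and a 95% interval that excludes no difference. Saa1, Saa3, Kng1, Fetub and Hp were higher, A2m was lower, and Lcn2 did not reach 50 CPM. Of 3725 genes at 50 CPM or more, 10.8% were higher and 9.32% lower by the same rule. The members' median log2 ratio was 3.98 over the 6 that reached 50 CPM, with the genes at 0 set at their floor, against 0.09 over all genes. The contrast was among those that chose the members, so nothing is read from this difference. In the FACS endoneurial-like cells, set against the same uninjured cells, the same 5 members were higher and A2m was lower, where 13.0% of 3740 genes were higher and 10.6% lower.

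**Figure D1:**
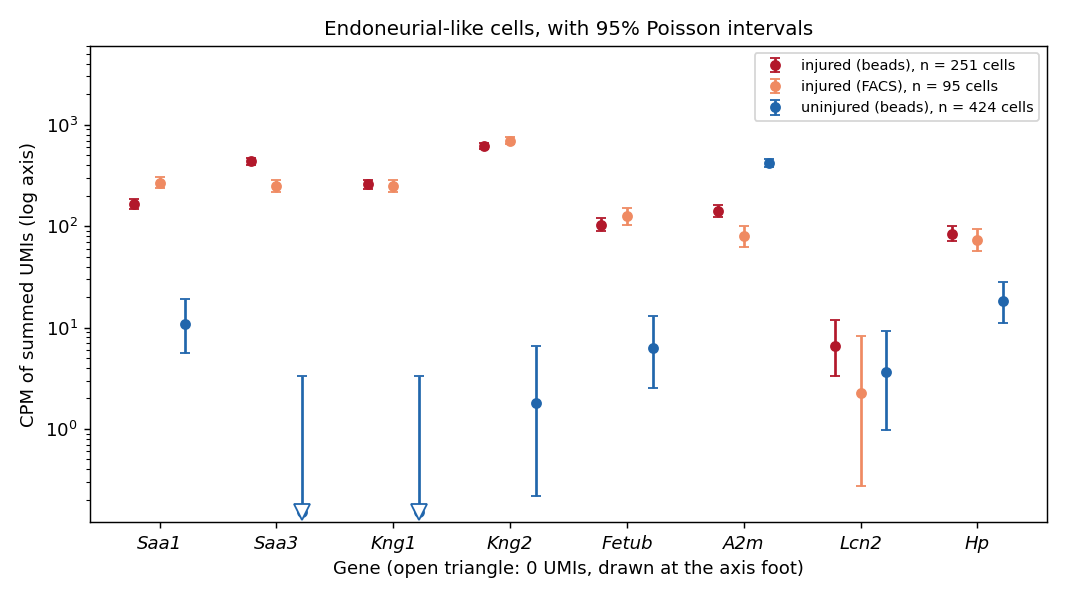
CPM of 8 genes (the 7 members and Kng2) in endoneurial-like cells of the injured beads, injured FACS and uninjured libraries, on a log axis, with 95% Poisson intervals for counting error. In both injured libraries Saa1, Saa3, Kng1, Kng2, Fetub and Hp lie above the uninjured library, A2m lies below it, and the Lcn2 intervals overlap.

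Saa1 and Saa3 encode serum amyloid A proteins, small lipoprotein-bound proteins that are among the most inducible of the acute phase. Saa3 had 723 UMIs in the injured beads cells, or 436 CPM (404 to 469), and 219 UMIs, or 248 CPM (217 to 283), in the injured FACS cells. The uninjured table has no row for Saa3, which is read as 0 UMIs and allows a level of up to 2.72 CPM in its 424 endoneurial-like cells. Against that floor of 3 counts over the pool, Saa3 was 160.4-fold higher in the injured beads cells. In the FACS cells it was 91.1-fold higher. The lower limits of the counting intervals of these ratios were 130.1-fold in the beads cells and 73.5-fold in the FACS cells. Both injured libraries thus held Saa3 transcripts where the uninjured library listed none. Of the 50-base stretches at the ends of Saa3 transcripts, 9.26% recur in other genes, Malat1 among them, and reads from those stretches cannot be assigned to 1 gene by sequence.

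The Saa3 UMIs were unevenly spread among the cells. They were found in 54 of 251 injured beads cells, and the highest cells held 175, 50 and 47 UMIs. The 5 highest cells held 50.5% of the UMIs, and 19 cells with at least 10 UMIs held 86.9%. In the FACS library 21 of 95 cells had a Saa3 UMI and the 5 highest held 84.5%. Without the 5 highest cells, the injured beads value set against the floor was 6.35 on the log2 scale, instead of 7.33. In the FACS cells it was 3.94 instead of 6.51, and the level there then lay under 50 CPM, so the FACS call for Saa3 rests on these cells.

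Saa1 had 276 UMIs in the injured beads cells, or 166 CPM (147 to 187), and 237 UMIs, or 269 CPM (236 to 305), in the FACS cells. The uninjured cells held 12 UMIs, or 10.9 CPM (5.61 to 19.0). The log2 ratio over the uninjured cells was 3.94 (3.11 to 4.91) in the beads library and 4.62 (3.79 to 5.60) in the FACS library. Saa1 was seen in 87 of 251 injured beads cells, and the 5 highest held 32.6% of its UMIs. In the FACS library the 5 highest of 95 cells held 67.5%, and the log2 ratio without them was 3.13. The neighbouring gene Saa2, which encodes a closely related protein, had 57 UMIs (34.3 CPM) in the injured beads cells, 28 (31.8 CPM) in the FACS cells and 3 (2.72 CPM) in the uninjured cells. Of the stretches of 50 bases in the last 400 bases of Saa1 transcripts, 6.84% also occur in Saa2, so a share of their reads could be counted to either gene. The RefSeq gene table moreover lists Saa2 as an older name of Saa1. With both genes summed the log2 ratio in the beads library was 3.89.

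On chromosome 7 of GRCm38, by the GENCODE annotation, the serum amyloid A genes are neighbours: Saa3 spans 46711998 to 46715700 (minus strand), Saa1 46740497 to 46742980 (minus strand) and Saa2 46751790 to 46754313 (plus strand). Saa4 lies between Saa3 and Saa1 and is listed in none of the tables used for these pools. The genes flanking this cluster were present at low levels. Saal1 had 34.3 CPM in the injured beads cells, 29.5 CPM in the FACS cells and 13.6 CPM in the uninjured cells. Hps5 had 21.7, 24.9 and 9.05 CPM in the same order of libraries. Tph1 had 2 UMIs in the injured beads cells and 0 in each of the other pools.

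Kng1 encodes a kininogen, the plasma precursor from which bradykinin is cut and an inhibitor of cysteine proteases. It had 428 UMIs in the injured beads cells, or 258 CPM (234 to 283), and 218 UMIs, or 247 CPM (215 to 282), in the FACS cells. No UMI was seen in the 424 uninjured endoneurial-like cells, although the gene has a row in that table. Kng1 was 94.96-fold higher in the injured beads cells and 90.7-fold higher in the FACS cells, each against 3 counts over the uninjured pool. The lower 95% limits of the ratios were 76.9-fold and 73.1-fold. Its UMIs were spread over more cells than those of Saa3, in 130 of 251 injured beads cells and 49 of 95 FACS cells. The 5 highest cells held 16.8% of them in the beads library and 41.3% in the FACS library.

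The second kininogen gene of the mouse, Kng2, was counted beside it because 11.2% of the 50-base stretches at the ends of Kng1 transcripts recur in Kng2. Kng2 had 621 CPM (583 to 660) in the injured beads cells and 695 CPM (641 to 752) in the FACS cells. The uninjured endoneurial-like cells held 2 UMIs, or 1.81 CPM, so the log2 ratio of 8.42 (6.57 to 11.47) in the beads library has a wide interval. It was the highest ratio of the 3725 genes compared, with genes at 0 set at their floor. Kng2 was not absent from uninjured nerve: it had 181 CPM (117 to 267) in uninjured perineurial-like cells and 39.4 CPM (27.6 to 54.5) in uninjured epineurial-like cells. Injured perineurial-like cells had 265 CPM of Kng2 (200 to 344), a log2 ratio of 0.55 (-0.15 to 1.29) that did not pass the rule. In injured epineurial-like cells it had 92.2 CPM (64.9 to 127), a log2 ratio of 1.23 (0.52 to 1.93) that did. With Kng1 and Kng2 summed over all mesenchymal cells, the log2 ratio of injured beads over uninjured cells was 3.65, against 6.75 (4.89 to 9.80) for Kng1 alone, which had 2 UMIs in the uninjured cells. Of the 63 uninjured Kng2 UMIs in that wider pool, 36 lay in epineurial-like, 25 in perineurial-like and 2 in endoneurial-like cells. The endoneurial-like cells alone held 428 Kng1 and 1030 Kng2 UMIs in the injured beads library, against 0 and 2 in the uninjured library.

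Fetub encodes fetuin-B, a liver plasma protein that inhibits the metalloprotease ovastacin. It had 172 UMIs in the injured beads cells, or 104 CPM (88.7 to 120), and 111 UMIs, or 126 CPM (104 to 152), in the FACS cells. The uninjured cells held 7 UMIs, or 6.34 CPM (2.55 to 13.1). The log2 ratio was 4.03 (2.96 to 5.37) in the beads library and 4.31 (3.22 to 5.66) in the FACS library. Fetub was seen in 81 of 251 injured beads cells, none with more than 8 UMIs, and in 33 of 95 FACS cells.

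Fetub, Kng2 and Kng1 lie close together on chromosome 16, at 22918334 to 22939778 (plus strand), 22985854 to 23029482 (minus strand) and 23057865 to 23082078 (plus strand). They are part of a row of cystatin-related genes that also includes Ahsg and Hrg. Ahsg, which encodes the plasma protein fetuin-A, had 8 UMIs (4.82 CPM) in the injured beads cells and 0 in the FACS cells and in the uninjured cells. Hrg is listed in none of the tables used for these pools. The next genes outwards were of another kind. Dnajb11, encoding a chaperone of the endoplasmic reticulum, had 155 CPM in the injured beads cells, 130.4 CPM in the FACS cells and 103 CPM in the uninjured cells. Eif4a2, encoding a translation factor, had 148, 257 and 231 CPM in the same order of libraries. Adipoq, the fat cell hormone gene beyond them, had 1, 3 and 0 UMIs.

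A2m, on chromosome 6 at 121635376 to 121679227 (plus strand), encodes alpha-2-macroglobulin, a broad trap for proteases that in the rat is a strongly inducible acute-phase protein. It had 142 CPM (124 to 161) in the injured beads cells and 79.4 CPM (61.9 to 100) in the FACS cells. The uninjured cells had 418 CPM (381 to 458). A2m was thus lower in both injured libraries, with log2 ratios of -1.56 (-1.80 to -1.33) and -2.40 (-2.79 to -2.04). It was widely spread at low counts, in 118 of 251 injured beads cells, 30 of 95 FACS cells and 186 of 424 uninjured cells, with at most 9 UMIs in a cell. The RefSeq table lists A2m also as an older name of Pzp, another macroglobulin gene. Pzp is listed in none of the tables, so the row is taken as A2m as named.

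Hp, on chromosome 8 at 109575128 to 109579172 (minus strand), encodes haptoglobin, which binds free haemoglobin. It had 140 UMIs in the injured beads cells, or 84.3 CPM (71.0 to 99.5), and 65 UMIs, or 73.7 CPM (56.9 to 93.9), in the FACS cells. The uninjured cells held 20 UMIs, or 18.1 CPM (11.1 to 28.0). The log2 ratio was 2.22 (1.54 to 2.97) in the beads library and 2.02 (1.28 to 2.82) in the FACS library. Without the 5 cells with the most Hp UMIs, the first was 1.66, and the second was 1.38 and under the rule's 50 CPM.

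Lcn2, on chromosome 2 at 32384633 to 32388252 (minus strand), encodes lipocalin 2, which binds bacterial iron carriers. It had 11 UMIs in the injured beads cells, each in a different cell, or 6.63 CPM (3.31 to 11.9), and 2 UMIs in the FACS cells. The uninjured cells held 4 UMIs, or 3.62 CPM (0.99 to 9.27). The intervals overlap, and a difference in Lcn2 was not detectable at this depth.

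**Figure D2:**
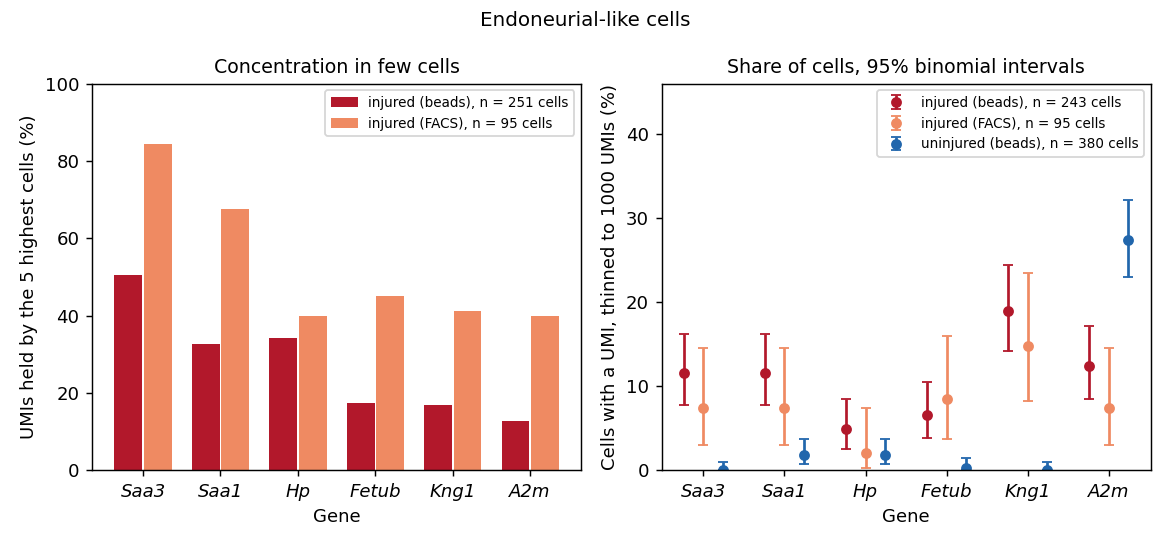
Left, share of a gene's UMIs (percent) held by the 5 endoneurial-like cells with the most of them, in the injured beads and injured FACS libraries; right, share of cells with a UMI (percent) after thinning to 1000 UMIs per cell, with 95% exact binomial intervals, with the uninjured library added. Saa3 has the highest value on the left in both libraries (50.5% and 84.5%), and on the right A2m alone is highest in the uninjured library.

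Depth differs between the pools, so cells were also thinned to 1000 UMIs each and shallower cells left out, which kept 243 injured beads, 95 injured FACS and 380 uninjured endoneurial-like cells. At this equal depth 18.9% of injured beads cells (14.2 to 24.4) and 14.7% of FACS cells (8.30 to 23.5) had a Kng1 UMI. None of the 380 uninjured cells did, which allows a share of up to 0.789%. A Saa3 UMI was kept in 11.5% of injured beads cells (7.80 to 16.2), in 7.37% of FACS cells (3.01 to 14.6) and in 0 of 380 uninjured cells. The shares for Saa1 were 11.5%, 7.37% and 1.84%, and those for Fetub 6.58%, 8.42% and 0.263%, in the same order of libraries. A2m ran the other way, with 12.3%, 7.37% and 27.4%. Hp was kept in 4.94%, 2.11% and 1.84% of cells, intervals that overlap.

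Cells that should lack these genes gave the background of free RNA in the droplets. At the same depth none of 79 T and NK cell-like or 130 B cell-like cells of the injured beads library had a UMI of Saa1, Saa3, Kng1, Fetub or A2m, which allows shares of up to 3.80% and 2.31%. Hp was kept in 1 of the 79 T and NK cell-like cells (1.27%, 0.0320 to 6.85) and in none of the B cell-like cells. Before thinning, at median depths of 865 and 764.5 UMIs, Saa3 had been seen in 0.948% of T and NK cell-like cells and 1.81% of B cell-like cells. The same share was 21.5% in injured beads endoneurial-like cells, whose median depth was higher, at 6232 UMIs, so these shares are not at equal depth. It was 4.38% for Lcn2 there, which had 0 UMIs in T and NK cell-like cells and 1 in B cell-like cells.

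Over all mesenchymal cells, 1289 in the injured beads table and 880 in the uninjured table, 4 members were higher and A2m was lower, where 8.17% of 3964 genes were higher and 7.14% lower. With the scaling of edgeR (TMM), which shifts all log2 ratios by -0.13, the 324 higher and 283 lower genes became 252 and 349, and the members' calls stayed at 4 and 1. The make-up of the pools differed, with 517 differentiating-like cells in the injured and 2 in the uninjured table. With the 3 other subclasses given the same weight, 174 genes were higher and 176 lower, and 3 members (Saa1, Saa3 and Kng1) were higher and A2m lower, since Hp no longer passed the rule. Hp had a log2 ratio of 2.77 (2.16 to 3.45) in this pool, on 343 injured and 23 uninjured UMIs. Saa1 was at 63.0 CPM in injured cells, and without the 5 cells with most of its UMIs it lay under 50 CPM. Fetub did not reach 50 CPM, with 37.9 CPM after injury, against 4.15 CPM in uninjured cells. In the FACS mesenchymal-like cells (673 cells), set against the same uninjured cells, 4 members were higher and A2m was lower, where 10.7% of 3947 genes were higher and 8.44% lower. Saa1, Saa3 and Kng1 were at 58.8, 59.5 and 57.6 CPM in them, and each lay under 50 CPM without its 5 highest cells, with log2 values of 1.99, 3.50 and 5.34.

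Among injured mesenchymal cells, most UMIs of 5 members lay in the endoneurial-like ones: 276 of 299 for Saa1, 723 of 1097 for Saa3, 428 of 471 for Kng1, 172 of 180 for Fetub and 235 of 252 for A2m. Clusters were compared here with the cells they were separated from, so this is a description. Saa1, Saa3, Kng1, Fetub and A2m were higher in them than in all other injured mesenchymal cells of the beads library, 5 of 7 members, where 6.26% of 4091 genes were higher and 9.51% lower. With TMM scaling 380 genes were higher and 252 lower, in place of 256 and 389. The log2 ratio was 5.32 (4.31 to 6.56) for Fetub, 4.68 (3.97 to 5.49) for A2m, 4.48 (3.87 to 5.16) for Saa1 and 4.21 (3.76 to 4.70) for Kng1. For Saa3 it was 1.85 (1.66 to 2.03). Without the 5 endoneurial-like cells with the most Saa3 UMIs it was 0.87, which is under 2-fold. The other mesenchymal cells were left whole there and kept their own highest cells, so the 2 pools were not trimmed alike. Hp was at 84.3 CPM in endoneurial-like cells and 65.8 CPM in the others, a log2 ratio of 0.36 (0.04 to 0.68). Lcn2 was at 6.63 and 4.86 CPM in them. Hp thus differed by under 2-fold from the other mesenchymal cells, and Lcn2 was near 0 in all of them.

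The FACS library gave the same 5 members, where 5.60% of 3875 genes were higher and 7.77% lower. Saa3 there had a log2 ratio of 4.49 (3.99 to 5.03) over the other FACS mesenchymal-like cells, and 1.92, under 50 CPM, without the 5 highest endoneurial-like cells. Of the remaining mesenchymal classes, differentiating-like cells of the beads library held 314 Saa3 UMIs (138 CPM), and 5 of 517 cells held 93.0% of them. The same class of the FACS library held 5 Saa3 UMIs in 199 cells. In the injured beads and uninjured libraries, epineurial-like and perineurial-like cells had few UMIs of any member. No member reached 50 CPM in them there, and 0 of 7 were called, where 4.02% of 3756 genes were higher and 2.32% lower in epineurial-like cells, and 5.73% of 4849 genes were higher and 7.61% lower in perineurial-like cells. Kng1 reached 33.1 CPM in injured perineurial-like cells, on 7 UMIs, against 0 UMIs in the uninjured ones.

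**Figure D3:**
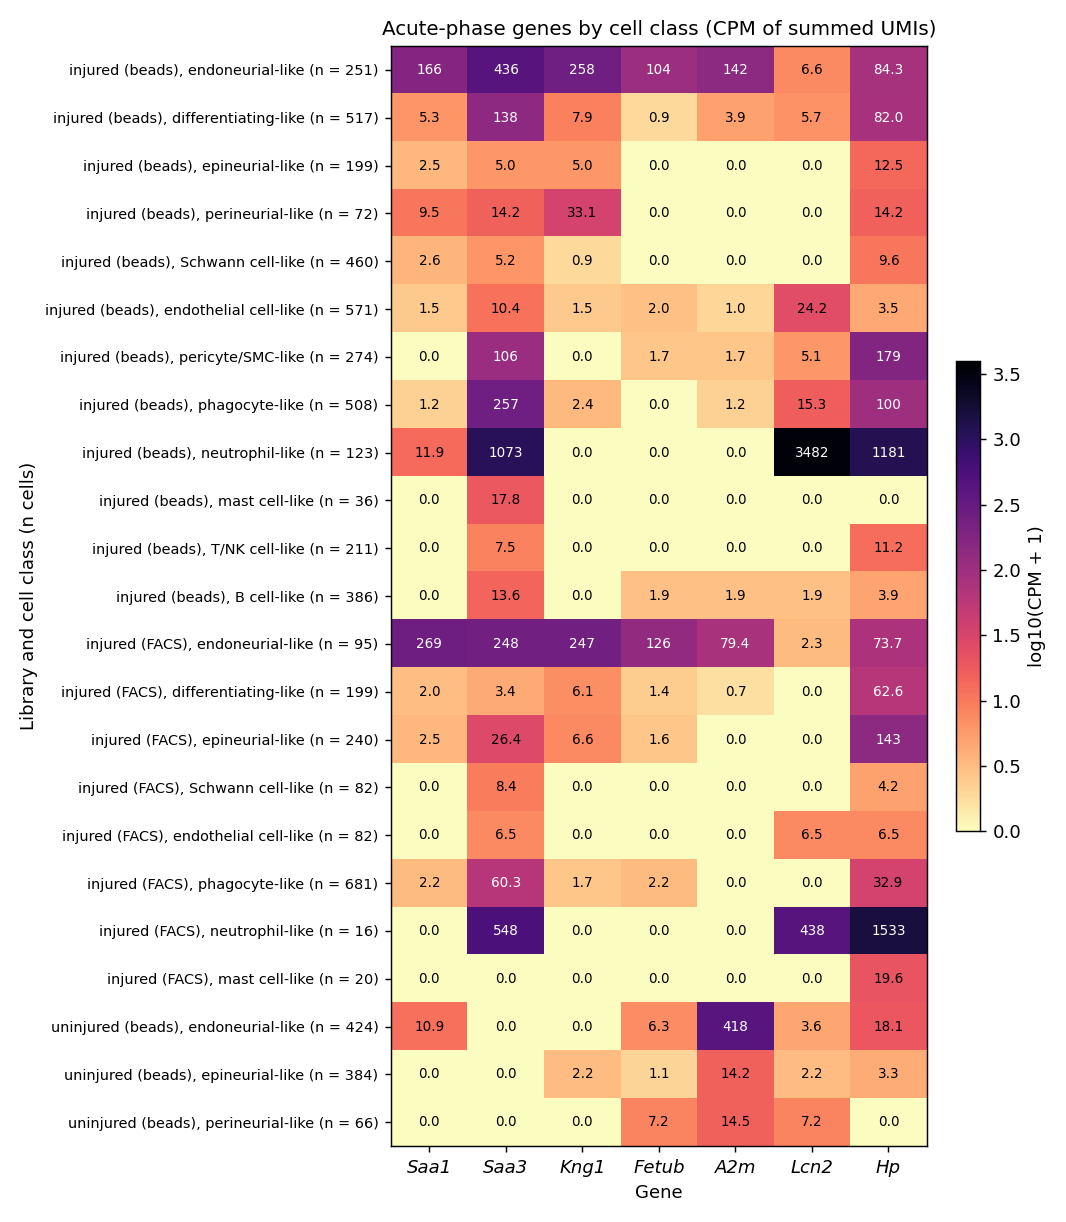
CPM of summed UMIs of the 7 members in each named cell class of the 2 injured libraries and in 3 mesenchymal classes of the uninjured library, with the number of cells; colour gives log10(CPM + 1), and unnamed cells are left out. Saa1, Kng1 and Fetub are highest in the injured endoneurial-like rows, A2m in the uninjured endoneurial-like row, and Lcn2 and Hp in neutrophil-like cells.

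Outside the mesenchymal cells the members fell into separate patterns. Saa1, Kng1, Fetub and A2m stayed at or under 11.9 CPM in every named class of both injured libraries, on 0 to 4 UMIs each. In the smallest class, 16 FACS neutrophil-like cells, 0 UMIs still allow up to 329 CPM. Lcn2 was highest in neutrophil-like cells of the beads library, at 3482 CPM (3094 to 3905), on 292 UMIs in 33 of 123 cells, of which the highest cell held 119. In the FACS library the 16 neutrophil-like cells held 4 Lcn2 UMIs, or 438 CPM (119 to 1122). Endothelial cell-like cells had 24.2 CPM of Lcn2 (17.9 to 32.0), on 49 UMIs spread over 29 of 571 cells with at most 4 in a cell. That is 68.1 Lcn2 UMIs per 100 UMIs of the neutrophil genes S100a8 and S100a9, against 5.62 in neutrophil-like cells and 15.1 in injured endoneurial-like cells.

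Saa3 was also found in immune and vascular classes, again in few cells. Neutrophil-like cells of the beads library had 1073 CPM (863 to 1319), but 63 of the 90 UMIs came from 1 cell. Phagocyte-like cells, which join macrophages and dendritic cells, had 257 CPM (224 to 293), on 34 of 508 cells with at most 72 UMIs. Pericyte and smooth muscle-like cells had 106 CPM, with 60 of 63 UMIs in 1 cell. In the FACS library phagocyte-like cells had 60.3 CPM (49.5 to 72.8). Saa3 at high counts in single cells was therefore seen in each of these classes as well as in endoneurial-like cells.

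Hp was at 1181 CPM (959.5 to 1437) in neutrophil-like cells of the beads library, on 44 of 123 cells with at most 10 UMIs. Phagocyte-like cells had 100.2 CPM (80.0 to 124). Pericyte and smooth muscle-like cells had 179 CPM, of which 1 cell held 74 of 106 UMIs. In the FACS library epineurial-like cells had 143 CPM of Hp (123 to 166) on 36 of 240 cells, and the sum of 6 fat cell markers there was 33.0 CPM. Epineurial-like cells of the beads library had 12.5 CPM of Hp, and the same fat cell markers summed to 19.9 CPM in them. Neutrophil-like cells were the highest named class in the FACS library too, on 14 Hp UMIs in 6 of only 16 cells. Below them, the order of classes by Hp differed between the 2 isolations.

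Markers of neutrophils and phagocytes were higher in both injured endoneurial-like pools than in the uninjured one, which bears on Saa3, Lcn2 and Hp. In the beads library S100a8 and S100a9 summed to 44.0 CPM in these cells. Their sum was 42.7 CPM in B cell-like and 41.2 CPM in T and NK cell-like cells of that library. Of 7 neutrophil markers, 4 had UMIs in the injured beads cells (48.8 CPM in sum), 3 in the FACS cells (20.4 CPM) and 2 in the uninjured cells (2.72 CPM), and Cxcr2, Ly6g and Retnlg were at 0 in all of them. Of 10 phagocyte markers, 8 had UMIs in the injured beads cells (274 CPM, of which 301 of 455 UMIs were Lyz2), 9 in the FACS cells (1070.5 CPM) and 6 in the uninjured cells (13.6 CPM). Hepatocyte markers were near 0: Alb, Apob, Tat and Cps1 had no UMI in any of these pools, and the list of 7 summed to 4.82, 1.13 and 3.62 CPM in the same order. Fat cell markers summed to 0.602, 11.3 and 2.72 CPM. In the 135 injured beads cells with under 2 UMIs of neutrophil and phagocyte markers, set against 424 uninjured cells treated likewise, the log2 values were 7.06 for Saa3 at the floor, 6.49 for Kng1 at the floor, 3.47 for Saa1, 3.92 for Fetub, 2.04 for Hp and -1.69 for A2m. The 5 higher members and A2m kept their calls there. In all injured mesenchymal cells treated likewise (925 of 1289 cells), 3 members instead of 4 passed the rule as higher, since Saa1 lay under 50 CPM there with a log2 ratio of 2.79. The part of immune cell RNA was not tested in either library. The filter leaves out whole cells and does not measure free RNA in those that remain. In the FACS library it was not used, because only 4 of 95 cells would remain.

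Cells holding UMIs of more than 1 member were counted at 1000 UMIs per cell, for the pairs among Saa1, Saa3, Kng1, Fetub and A2m. In the injured beads library 10 of 243 cells held both Saa1 and Saa3, where the product of their shares gives 3.23 cells. Saa1 and Kng1 were both seen in 5 cells, against a product of 5.30. For Saa3 and Kng1 the count was 3 cells, against 5.30, and for Kng1 and Fetub 5 cells, against 3.03. Fetub was seen with Saa1 in 4 cells and with Saa3 in 4 cells, against 1.84 for each. A2m was seen with Kng1 in 9 cells, against 5.68, and with Fetub in 5 cells, against 1.98. With Saa1 and with Saa3 it was seen in 7 cells, against 3.46 for each. In the 95 FACS cells the counts were 1 for Saa1 and Saa3, against 0.516, and 0 for Saa1 and Kng1, against 1.03, and no pair among these genes was seen in more than 2 cells. These counts are small and carry no test. After thinning, 57.2% of the injured beads cells, 63.2% of the FACS cells and 69.5% of the uninjured cells held no UMI of any member. Of the 380 uninjured cells, 112 held 1 member and 4 held 2, and A2m was seen in 104.

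Across 25 pools of at least 30 cells, the genes whose log2(CPM + 10) followed each member most closely were picked among 8970 genes. Many pools come from the same library and depth differs between them, so the correlations are a description. Kng1 (Pearson r = 0.94), Fetub (0.94) and Gcg (0.94), the glucagon precursor gene, were most like Saa1. Gcg had 182 CPM in the injured beads endoneurial-like cells, 109 CPM in the FACS cells and 14.5 CPM in the uninjured cells. Fetub was most like Cspg5 (0.94), Saa1 (0.94) and Nipal1 (0.91), and Kng1 like Gcg (0.96), Saa1 (0.94) and Cspg5 (0.91). A2m was most like the cartilage collagen genes Col9a2 (0.95) and Col2a1 (0.91) and the gene Fndc5 (0.91). Saa3 followed Prdx5 (0.83), Cxcl2 (0.79) and Il1rn (0.78), Hp followed Cxcl2 (0.79), Mmp9 (0.79) and Saa3 (0.78), and Lcn2 followed Slfn4, Sycp2 and Retnlg (0.97, 0.97 and 0.96), whose highest pool was neutrophil-like cells. Saa1 and Saa3 themselves had an r of 0.58 with each other.

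Related genes of the acute phase were counted from lists. Of 27 other acute-phase genes, 8 reached 50 CPM in the endoneurial-like comparison of the beads library, 5 were higher and 2 lower, where 10.8% of all genes compared were higher and 9.32% lower. Some reached 50 CPM through the injured cells alone, so this count is a description. C3, the central complement component, reached 781 CPM after injury, against 30.8 CPM in uninjured cells, a log2 ratio of 4.67 (4.18 to 5.20). Ptx3, a long pentraxin, had a log2 ratio of 3.85 (3.40 to 4.34), Serpina3n, a serine protease inhibitor, 3.30 (2.77 to 3.89), Lbp, the lipopolysaccharide-binding protein, 3.25 (2.94 to 3.58), and Steap4, a metalloreductase, 2.18 (1.98 to 2.38). The metallothioneins Mt1 and Mt2 were lower, by log2 ratios of -2.16 (-2.31 to -2.02) and -1.39 (-1.58 to -1.20). Cp, encoding the copper protein ceruloplasmin, was at 3040 CPM after injury, against 5122 CPM in uninjured cells, under 2-fold in the beads library. In the FACS cells Cp was lower as well, with a log2 ratio of -1.52 (-1.60 to -1.44). Over all mesenchymal cells 9 genes of this list reached 50 CPM, 1 was higher (Ptx3) and 3 were lower (Mt1, Mt2 and Cp), where 8.17% of all genes compared were higher and 7.14% lower. C3 in that wider pool was at 642 CPM after injury, against 753 CPM without it. Injured epineurial-like cells alone had 1896 CPM (1763 to 2035) of C3, and uninjured ones 1740 CPM (1655 to 1827).

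Genes of the negative acute phase, whose plasma proteins fall in the response, were mixed. Trf, the iron carrier transferrin, had 3008 CPM in injured endoneurial-like cells, against 759 CPM in uninjured ones, a log2 ratio of 1.99 (1.88 to 2.09). Rbp4, the plasma retinol carrier, had 22.3 and 240.8 CPM, a log2 ratio of -3.43 (-3.97 to -2.93). They were the 2 of 6 listed genes that reached 50 CPM.

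Of 20 genes of the inducing pathway, 14 reached 50 CPM in endoneurial-like cells of the beads library, 8 were higher and 2 lower, beside the same 10.8% and 9.32% of all genes. A gene can reach 50 CPM in the injured cells alone, so the counts of this list and of those below are descriptions too. The receptor genes Osmr, for oncostatin M, and Il1r1, for interleukin-1, both had a log2 ratio of 3.29 (2.82 to 3.79 and 2.69 to 3.95). Il6st, the signalling chain shared by the interleukin-6 family, was at 921 CPM after injury, against 298 CPM in uninjured cells, a log2 ratio of 1.63 (1.46 to 1.80). The kinase gene Jak2 and the receptor gene Lifr had log2 ratios of 1.20 and 1.02, the factor genes Stat3 and Bcl3 1.27 and 2.18, and the NF-kB inhibitor gene Nfkbia 1.56. Socs3, which damps this pathway, was lower, at 222 CPM after injury, against 968 CPM in uninjured cells, as was Irf1, an interferon-responsive factor gene, with 79.5 and 265 CPM. Cebpb, which encodes C/EBP beta, did not pass, at 259.7 CPM after injury, against 395 CPM in uninjured cells. In the FACS cells 12 genes of the list reached 50 CPM, 6 were higher and 2 lower, where 13.0% of all genes compared were higher and 10.6% lower. Among 8 ligand genes Il6 alone reached 50 CPM, at 130.1 CPM in the injured beads cells, 68.0 CPM in the FACS cells and 40.7 CPM in the uninjured cells. It passed the rule in the beads library, with a log2 ratio of 1.68 (1.21 to 2.17), and was under 2-fold in the FACS library. Of 20 receptors and partners of the members, 3 reached 50 CPM: Kng2 was higher, Ace, whose product degrades bradykinin, was lower with 78.9 CPM in the injured beads cells, against 218 CPM in the uninjured cells, and Lrp1, a receptor for alpha-2-macroglobulin complexes, was under 2-fold at 644 and 389 CPM in them.

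**Figure D4:**
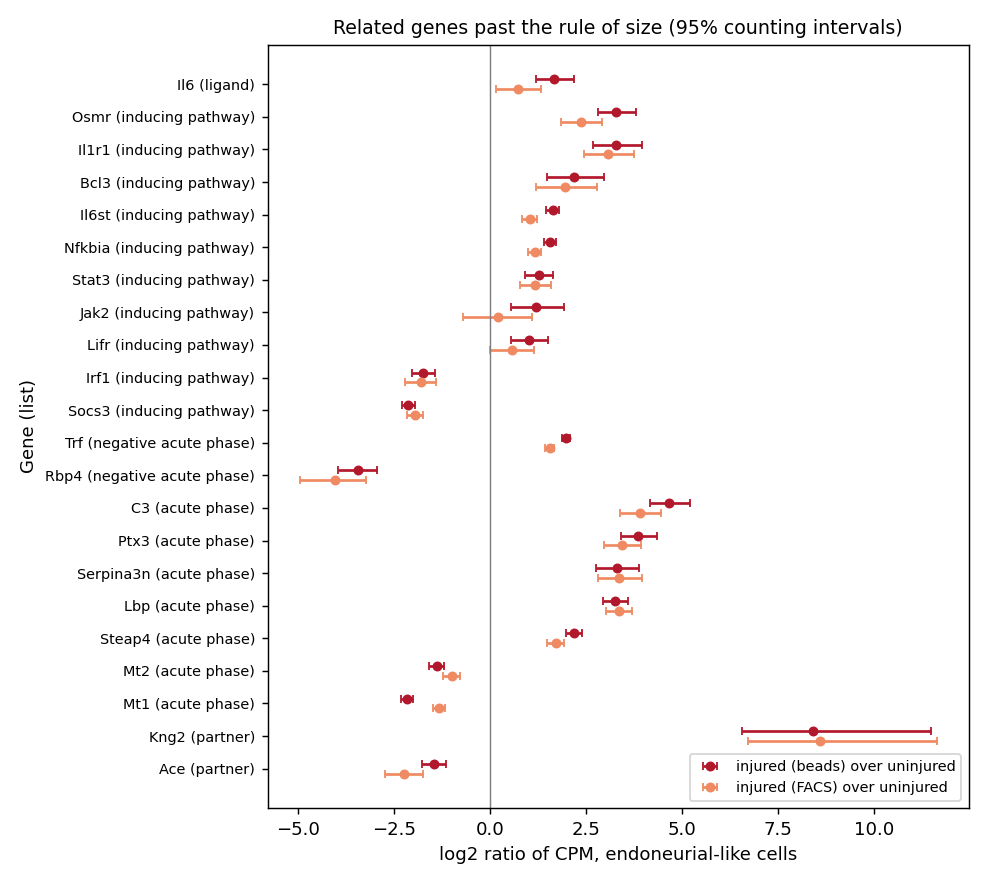
Log2 ratio of CPM over uninjured endoneurial-like cells, with 95% counting intervals, for each related gene past the rule of size in the injured beads library, beside the injured FACS library. The libraries share the uninjured cells; C3, Ptx3, Serpina3n, Lbp, Osmr, Il1r1 and Kng2 lie above 2 in both, and Rbp4, Socs3, Irf1, Mt1, Mt2 and Ace below -1 in both.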

How the data were processed

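The authors deposited unnormalized UMI counts, as whole numbers for each gene in each cell. There are 4 such tables, for all barcodes of both injured libraries and for the mesenchymal cells of the bead-cleaned ones. Per the submitters' processing notes reads were placed on mm10; names of an aligner, counter or annotation were not given in the sources used here. Per the labels, nerves were dissociated with collagenase and trypsin. The injured beads library held 4300 barcodes (10859939 UMIs), of which 1289 form its mesenchymal table (4746263 UMIs), the FACS library 2000 barcodes (7122377 UMIs) and the uninjured library 880 cells (2169121 UMIs). The beads and FACS tables share 1 barcode.

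A gene with no row in the uninjured table was read as 0, and one with no row in the FACS table was left out of FACS comparisons, whose totals cover the shared genes. Barcodes with at least 200 genes were clustered (scanpy 1.11.5, leidenalg 0.10.2, Python 3.11.15; 2000 variable genes without the members and related lists, 30 components, 15 neighbours, resolution 0.8). Mesenchymal cells of the beads libraries were clustered together. Clusters were named from 12 lists of cell type and 4 lists of subclass markers by a score set after the data were seen. No doublet call was made, so doublets remain.

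UMIs were summed per pool and scaled to CPM with exact Poisson intervals; ratios carry exact conditional binomial and shares exact binomial 95% intervals (scipy 1.17.1). These cover counting error only. With 1 library per group no test is possible and no p-value is given. The code was checked on simulated counts. Named genes were all 7 members, list genes past the rule of size, neighbours within 3 genes, and the 3 genes most like each member. The members and gene lists were chosen with earlier results of these data known. edgeR 4.0.16 and DESeq2 1.42.0 (R 4.3.3) gave other scalings. Gene positions and transcript ends are from GENCODE vM21 (GRCm38).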

Additional observations from a re-analysis of the deposited data

Results flagged for a closer look

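Socs3, a feedback inhibitor of the pathway that induces acute-phase genes, differed in direction between classes under the same comparison of injured beads over uninjured cells. Its log2 ratio was -2.13 in endoneurial-like cells (-2.30 to -1.95; 368 UMIs in injured and 1070 in uninjured cells) and -1.25 in epineurial-like cells (-1.79 to -0.75; 38 and 206 UMIs). In perineurial-like cells it was 1.12 (0.01 to 2.38), on 30 UMIs in injured and 9 in uninjured cells. Each class has 1 library per group, so the difference between classes was not tested. Socs3 was the only one of the members and related genes that passed the rule of size in opposite directions in these 3 classes.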

How the results depend on the processing

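Of the counts for the main comparisons, 68 alternative values stayed within 1.5 times the main one and 8 did not. Of all other alternative values, 305 stayed and 56 moved. These are values of single genes, judged by the counting interval of the main value, and counts of the remaining comparisons, judged by the same 1.5 times. In injured beads over uninjured mesenchymal cells, the 324 higher and 283 lower genes became 675 and 470 with a floor of 20 CPM, 1407 and 1094 with no floor, and 174 and 176 with 3 subclasses at the same weight, where 3 members were higher and 1 lower. In injured endoneurial-like over other injured mesenchymal cells, 389 lower genes became 252 with TMM and 253 with DESeq2 size factors; the cause was not tested. Members called in endoneurial-like cells over uninjured ones stayed at 5 higher and 1 lower at resolutions 0.4 and 1.6, with subclasses by marker score, with both scalings and without cells holding immune markers. No called value changed sign. Without the 5 highest cells of a gene, Saa1 in injured beads over uninjured mesenchymal cells lay under 50 CPM, with a log2 ratio of 3.01. Leaving out these cells was planned for the comparisons of the injured beads library with uninjured cells and chosen after seeing the data for the others. Lcn2 ratios ranged from -1.42 to 2.77 in endoneurial-like cells, on at most 11 UMIs at the main setting. The marker filter was not used in the FACS library, where 4 of 95 endoneurial-like cells would remain. No paired analysis was possible because each group is 1 library. Depth limits Lcn2, and Kng1, Saa3 and Kng2 in uninjured endoneurial-like cells (0, 0 and 2 UMIs).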

Other observations

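Hp was at 679 CPM (599 to 766) in 360 cells of the injured FACS library that stayed unnamed. A single cell held 172 of the 261 UMIs, and 23 cells had any. The 6 fat cell markers, among them the adiponectin gene Adipoq, summed to 1917 CPM in these cells, against 11.3 CPM in FACS endoneurial-like cells. Adipocyte and mesenchymal scores lay within the required margin in the larger of the 2 unnamed clusters (298 cells), and Hp was among its 10 leading genes. Saa3 had 135 CPM in the same cells, with 18 UMIs in the highest cell.

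Among injured beads mesenchymal cells, 250 shallow ones, with a median of 505.5 UMIs, also stayed unnamed. They had 285 CPM of Saa3 (215 to 371), 285 CPM of Kng2 and 82.9 CPM of Kng1, and their neutrophil markers S100a8 and S100a9 were at 301 CPM, against 44.0 CPM in injured endoneurial-like cells.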
